A study of Bos taurus with 8 samples.

Results

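The caspases and the BCL2 family, with the receptors, adaptors and inhibitors that act beside them, were followed in denuded bovine oocytes collected in summer and in winter. Members were the genes of the deposited table whose symbol is a numbered caspase, BCL2 or a BCL2-like gene, or one of a short set of death genes (MCL1, BAX, BAK1, BOK, BAD, BID, BIK, BBC3, PMAIP1, HRK, BMF, APAF1, XIAP, BIRC2, BIRC3, DIABLO, FADD, CFLAR and FAS), leaving out CASP8AP2. The rule found 35 of the 26804 genes in the table. The table lists no row under the symbols BIK, HRK, CASP10 or BCL2L10, which were therefore not analysed here.

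Oocytes came from dry, multiparous beef cows (Angus in the series record, crossbred in the study's methods) that were held as one herd from the winter to the summer session. All cows received the same intravaginal progesterone and follicle-stimulating hormone protocol in both seasons, with one aspiration session in winter and one in August. Germinal vesicle oocytes were stripped of cumulus cells and frozen, each pool joined the RNA of a pair of cows, and the libraries were A, B, C and E for summer and A, B, D and E for winter (4 per season). The labels set the groups apart by season alone. The study discarded cumulus-oocyte complexes of the lower grades, and reported a smaller share of top-grade ones in summer than in winter. How the grades were split within each pool is not given. Each season was a single session, so season and session cannot be told apart, and p-values measure the spread between pools. The study sampled the same cows in both seasons. The labels do not pair the pools, so the main fit treated them as independent. Values are TPM, a share of all transcripts that is scaled by length, so levels can be compared between genes. The number of reads behind a value is unknown. Each difference is the summer mean less the winter mean of log2(TPM + 1), a scale that shrinks the change of scarce transcripts, and errors are SD with n = 4 unless stated.

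Apoptosis runs along 2 connected routes. In the mitochondrial route, BH3-only proteins sense damage and free the pore-forming proteins BAX and BAK1 from BCL2-type guardians. The outer membrane then opens, and released cytochrome c joins APAF1 to activate the initiator caspase-9. In the receptor route, FAS recruits FADD and the initiator caspase-8, which CFLAR restrains. Both routes end in the executioner caspases, which inhibitor of apoptosis proteins hold in check until DIABLO displaces them. The roles given below are known mainly from human and mouse cells. In the ovary the same genes set the number of oocytes that survive to ovulation, and follicle atresia proceeds through death of granulosa cells.

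Oocyte markers were found in every library, as were markers of other cell types, and the marker shares differed between libraries. The study inspected each stripped oocyte for somatic cells with a stereomicroscope. Where the transcripts of other cell types came from was not tested. The 15 oocyte markers (GDF9, BMP15, ZP3, NLRP5 and others) made up between 1.45 and 1.69% of TPM in summer and between 0.436 and 1.08% in winter (exact permutation, two-sided, p = 0.0286, the lowest that 4 against 4 can give, and adjusted over 7 marker lists p = 0.10). The 12 theca and stroma markers together held from 0.0201 to 0.0294% in summer and from 0.0441 to 0.244% in winter (exact permutation p = 0.0286, adjusted p = 0.10). The marker lists were chosen with earlier results of these data known, so the p-values of their sums add no support. The 14 cumulus and granulosa markers overlapped between the seasons, from 0.806 to 1.16% in summer and from 0.940 to 3.75% in winter, with the highest share in winter E (exact permutation p = 0.257). Their sum exceeded the oocyte sum in winter A (1.07 against 0.785%), D (1.05 against 0.676%) and E (3.75 against 0.436%). In winter B and in every summer library the oocyte sum was the larger. A sum depends on which genes are listed, so the larger sum does not give the share of each cell type. Winter A had the highest sums of epithelial markers (0.316%, against 0.0195 to 0.108% elsewhere) and of leukocyte markers (0.0678%, against 0.00263 to 0.0119%), while the pan-leukocyte gene PTPRC did not exceed 1.05 TPM in any library. The leukocyte sum of winter A was mostly CD74 (616 TPM). Winter A was highest for CD74 and CD14 alone. Winter B was highest for CD68, LCP1, LYZ, ITGB2, TYROBP and PTPRC, and a summer library for CSF1R and CD3E. In pooled material, fewer cells of a type and less RNA per cell cannot be told apart. How far these shifts entered the member values below was not tested.

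Transcripts of most members were found in the libraries of both seasons at low to moderate levels. Of the 35 members, 31 were expressed (zFPKM, a standardised log level, above -3 in every library of at least one season) and were tested among 13379 genes. Calls were made with limma at a 2-fold difference or more and an adjusted p under 0.05. In summer 1 member rose, BCL2L14, against 4.4% of all genes tested, and 2 fell, BOK and CASP8, against 5.17%. The 3 calls are 9.68% of the tested members, where 9.57% of all genes were called, so the members were not called more often than genes in general. Adjusted p was under 0.05 without regard to size for 10 members, 4 higher and 6 lower in summer, which is 32.3% against 26.8% of all genes. Libraries of the seasons did not overlap for 10 members, 3 above and 7 below in summer, which is 32.3% against 29.5% of all genes. The median difference was -0.38 over tested members and -0.03 over all genes tested.

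**Figure D1:**
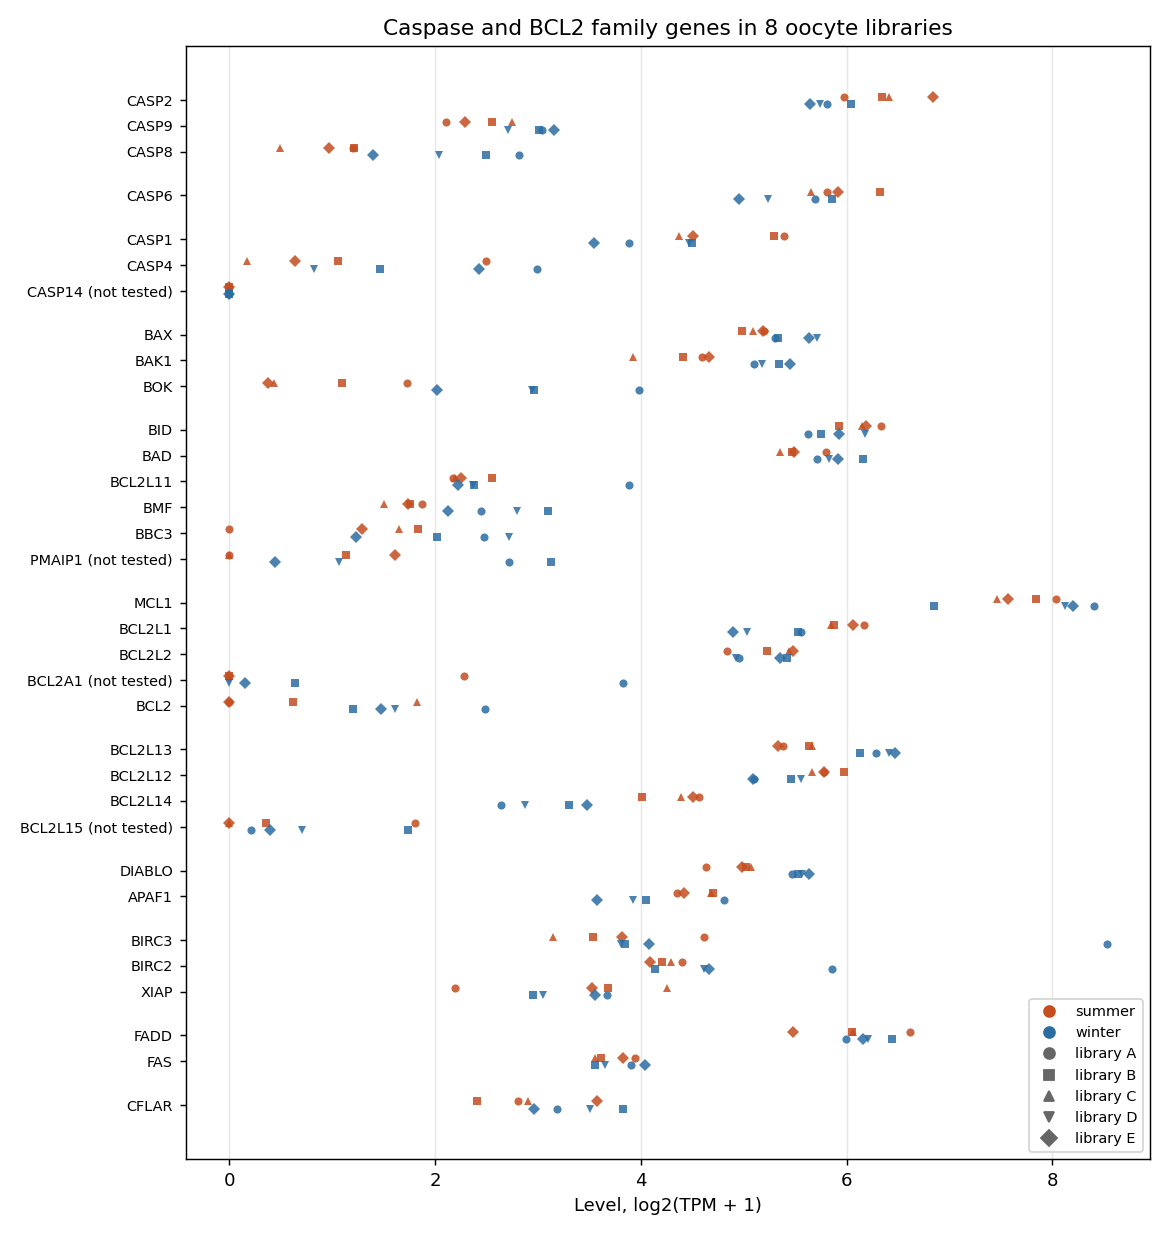
Level of 33 members in each of the 8 oocyte libraries, grouped by role, on the log2(TPM + 1) scale. Colour gives the season and the symbol gives the library letter. MCL1 was the most abundant member in 7 of the 8 libraries, and winter A stands alone for BIRC3. The seasons are apart for BOK, CASP8, BAK1, BCL2L13 and BCL2L14, and also for BAX, BMF, DIABLO, BCL2L1 and BCL2L12.

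Among the initiator caspases, CASP2 was by far the most abundant and CASP8 fell in summer. Initiators are the first proteases of the cascade. Caspase-2 responds to DNA damage and spindle faults and has been linked to oocyte loss in mice, caspase-9 is the protease of the apoptosome, and caspase-8 is that of the death receptors. CASP8 stood at 1.30, 1.32, 0.403 and 0.952 TPM in summer A, B, C and E. In winter A, B, D and E it stood at 6.02, 4.63, 3.10 and 1.63 TPM. All summer libraries lay below all winter libraries, though summer B and winter E were close. The difference was -1.22 (SE 0.36, limma adjusted p = 0.0300). This call rested on the full set of libraries, since it was lost without summer B, summer C, summer E, winter A, winter B or winter D (adjusted p up to 0.0786, limma), with differences from -1.48 to -1.01 over the libraries left out in turn. It was also lost with the library letter as a block (difference -1.11, adjusted p = 0.130, limma).

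CASP2 went the other way. It was measured at 61.7, 80.1, 84.2 and 114 TPM in summer A, B, C and E and at 55.2, 64.8, 52.4 and 49.0 TPM in winter A, B, D and E. Summer E was the highest, and summer A lay below winter B, so the seasons overlapped. The difference was 0.58 (SE 0.19, limma adjusted p = 0.0404), short of the 2-fold limit, and the adjusted p exceeded 0.05 when any library other than summer A or winter B was left out (up to 0.0970, limma). CASP9 had 4.44 ± 1.06 TPM in summer and 6.92 ± 0.992 in winter, with summer C alone reaching the winter range (difference -0.55, 95% interval -1.09 to -0.02, adjusted p = 0.111, limma). CASP2 exceeded CASP9 in every library, by 14.7 to 29.3 times in summer and by 6.21 to 9.46 times in winter. It made up between 80.7 and 95.9% of the summed initiator TPM.

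CASP6 was not called. Caspase-6 is counted with the executioners and cleaves the lamins of the nuclear envelope. CASP6 stood at 55.2, 79.1, 49.3 and 59.3 TPM in summer A, B, C and E. In winter A, B, D and E it stood at 50.8, 56.9, 36.8 and 30.0 TPM. The highest value was in summer B and the lowest in winter E, and the seasons overlapped (difference 0.49, 95% interval -0.00 to 0.98, adjusted p = 0.122, limma).

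The inflammatory caspases were carried by CASP1, the protease that matures interleukin-1 beta in inflammasomes. CASP1 reached 41.0 and 38.2 TPM in summer A and B but only 19.7 and 21.7 TPM in summer C and E. The winter libraries A, B, D and E held 13.8, 21.6, 21.1 and 10.7 TPM. The higher summer mean came from A and B, and summer C lay inside the winter range (difference 0.79, 95% interval 0.12 to 1.46, adjusted p = 0.0746, limma). CASP4, which senses bacterial lipopolysaccharide inside cells, lay between 0.124 and 6.93 TPM and was highest in the A library of each season (4.65 and 6.93 TPM, difference -0.84, adjusted p = 0.292, limma). CASP14, a caspase of the skin barrier, was listed at 0 in all 8 libraries and was not tested.

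BOK fell in summer, and BAK1 and BAX did not pass the 2-fold limit. Summer lay below winter without overlap for all 3 pore-forming genes, as it did for 14.1% of all genes tested, and adjusted p was under 0.05 for BOK and BAK1. These proteins insert into the outer mitochondrial membrane, BAX from the cytosol, BAK1 from within the membrane, and BOK mostly from the endoplasmic reticulum. BOK measured 2.30, 1.13, 0.351 and 0.297 TPM in summer A, B, C and E. In winter A, B, D and E it measured 14.8, 6.78, 6.67 and 3.05 TPM. Winter A held the highest value, and the lowest winter value, in E, was still above the highest summer value. BOK fell by 2.07 on the log2 scale (SE 0.45, adjusted p = 0.0103, limma), and leaving out any single library kept the call (adjusted p up to 0.0318, limma). The sum of the theca and stroma markers was likewise lower in every summer library (0.0201 to 0.0294%, against 0.0441 to 0.244% in winter). Of its 12 genes 10 were tested and 9 were called lower, against 5.17% of all genes. The theca gene INSL3 overlapped between the seasons (85.8 to 142 TPM in summer, 68.2 to 168 TPM in winter), and LHCGR and CYP17A1 were not tested. Winter A, highest for BOK, also had the highest epithelial and leukocyte sums (0.316 and 0.0678%, the latter mostly CD74). The part of these marker sums in the BOK difference was not tested.

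BAK1 had a smaller and tighter difference. Its values were 23.2, 20.3, 14.2 and 24.4 TPM in summer A, B, C and E and 33.3, 39.7, 35.2 and 42.7 TPM in winter A, B, D and E. The highest summer library, E, lay below the lowest winter library, A (24.4 against 33.3 TPM). The difference was -0.87 (SE 0.20, adjusted p = 0.0118, limma), short of 2-fold, and adjusted p stayed under 0.05 with each library left out in turn (at most 0.0348, limma). BAX was nearly constant within summer, at 35.6, 30.7, 33.2 and 35.5 TPM, and higher in winter, at 38.6, 39.4, 51.3 and 48.7 TPM. The seasons did not overlap, but the adjusted p was 0.0837 (difference -0.38, 95% interval -0.71 to -0.05, limma). Summed over the 3 genes, TPM ran from 47.7 to 61.1 in summer and from 85.9 to 94.5 in winter.

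**Figure D2:**
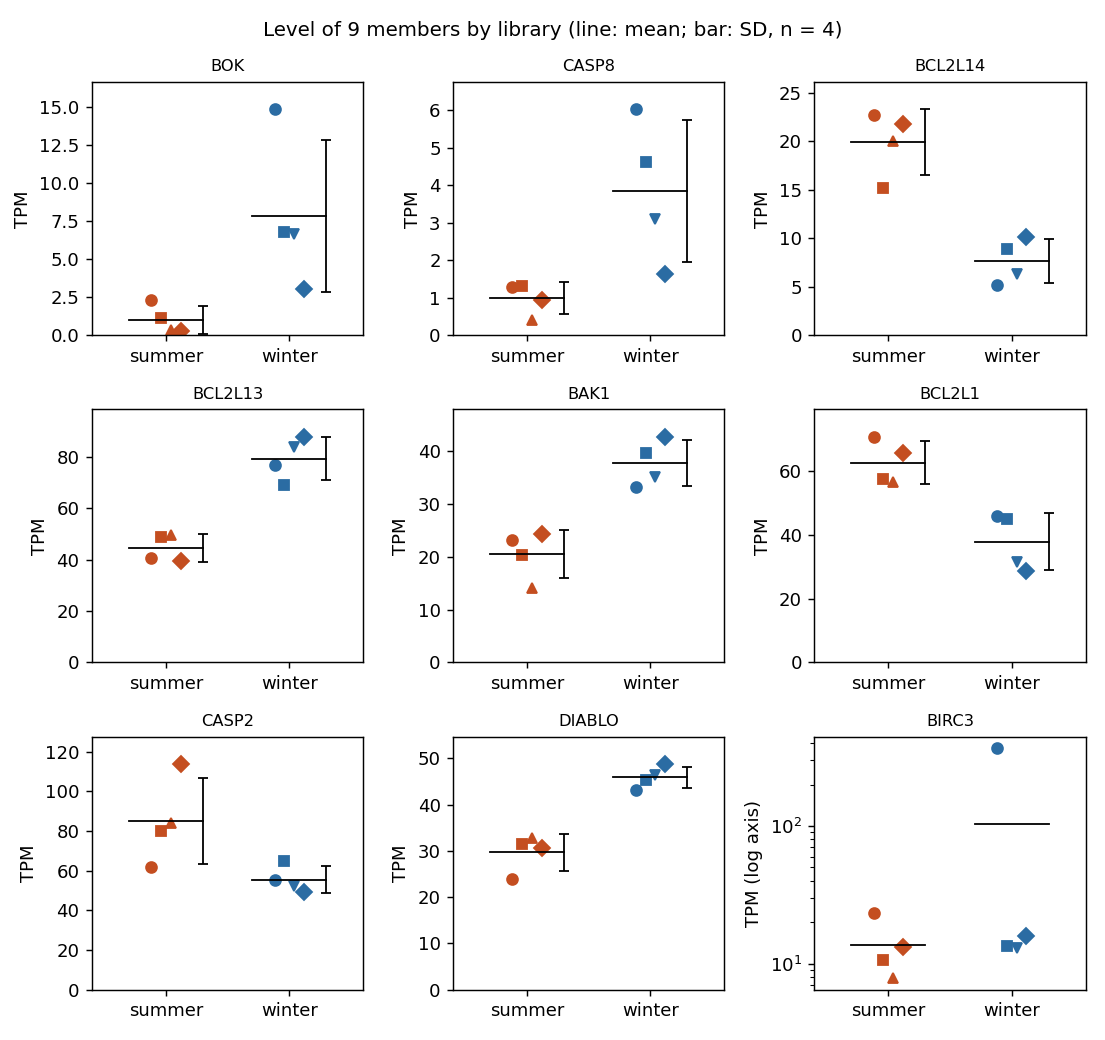
TPM of 9 members in each library, with summer in orange and winter in blue. Circles are library A, squares B, upward triangles C, downward triangles D and diamonds E; lines are season means and bars are SD (n = 4), axes start at 0 except for BIRC3, which has a log axis and no SD bar. BOK, CASP8, BCL2L13, BAK1 and DIABLO lie lower in every summer library, BCL2L14 and BCL2L1 lie higher, CASP2 overlaps, and BIRC3 reached 368 TPM in winter A alone.

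The BH3-only genes were dominated by BID and BAD, and none was called. BID is cut by caspase-8 and links the receptor route to mitochondria, and BAD binds BCL2-type guardians under control of growth factor kinases. BID stood at 79.9, 60.0, 70.2 and 72.2 TPM in summer A, B, C and E and at 48.4, 52.9, 71.6 and 59.9 TPM in winter A, B, D and E. Winter D was as high as the middle of the summer range (difference 0.28, 95% interval -0.07 to 0.63, adjusted p = 0.197, limma). BAD stood at 54.8, 43.5, 39.9 and 43.9 TPM in summer and at 51.3, 70.3, 55.9 and 59.2 TPM in winter, in the same library order. Summer A overlapped the winter values, and without it the adjusted p was 0.0448, against 0.0948 with all libraries (difference -0.37, limma).

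The rarer BH3-only genes had lower means in summer. Those tested ranked low, with BCL2L11 the highest of them at the 17.3rd percentile of mean TPM among tested genes. BMF, which is released from the cytoskeleton when cells lose attachment, measured 2.67, 2.37, 1.84 and 2.33 TPM in summer and 4.47, 7.57, 5.95 and 3.36 TPM in winter. Its seasons did not overlap (difference -0.90, SE 0.28, adjusted p = 0.0373, limma). Without winter E it passed the 2-fold limit (-1.07, adjusted p = 0.0330, limma), while without summer B, C or E or winter B or D its adjusted p exceeded 0.05 (up to 0.0951, limma). BBC3, the p53 target PUMA, was listed at 0 in summer A and lay between 1.34 and 5.58 TPM elsewhere (difference -0.92, adjusted p = 0.157, limma). The BBC3 difference was -0.52 without summer A and -1.76 with a pseudocount of 0.1. BCL2L11, the gene of BIM, ranged from 3.52 to 4.88 TPM in 7 libraries and reached 13.8 TPM in winter A, and its difference moved from -0.42 to -0.03 without that library. PMAIP1, the p53 target NOXA, was not tested, with 0, 1.20, 0 and 2.06 TPM in summer and 5.59, 7.71, 1.09 and 0.364 TPM in winter.

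Downstream of the mitochondria, DIABLO was lower in summer while APAF1 did not pass the test. DIABLO leaves mitochondria with cytochrome c and relieves caspases of their inhibitors, and APAF1 is the scaffold of the apoptosome. DIABLO measured 23.8, 31.6, 32.7 and 30.6 TPM in summer A, B, C and E and 43.3, 45.2, 46.3 and 48.8 TPM in winter A, B, D and E. Winter values lay within a narrow band above all summer values (difference -0.62, SE 0.15, adjusted p = 0.0148, limma), and adjusted p was at most 0.0433 with each library left out. APAF1 stood at 19.4, 25.0, 24.7 and 20.3 TPM in summer and at 27.0, 15.6, 14.2 and 10.9 TPM in winter. Winter A was the highest library of all and the other winter libraries were the lowest. The APAF1 difference was 0.45 (adjusted p = 0.210, limma), and 0.69 without winter A (adjusted p = 0.0396, limma).

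Of the anti-death BCL2 genes, MCL1 was the most abundant and BCL2L1 was higher in summer. MCL1 is a short-lived guardian needed for oocyte survival in mice, BCL2L1 encodes BCL-XL, BCL2L2 encodes BCL-W, and BCL2 is the founding member. BCL2L1 measured 70.9, 57.7, 56.7 and 65.6 TPM in summer A, B, C and E. In winter A, B, D and E it measured 46.1, 45.1, 31.6 and 28.8 TPM. Every summer library lay above every winter library, with the lowest values in winter D and E. The difference was 0.74 (SE 0.18, adjusted p = 0.0171, limma), short of 2-fold, and adjusted p rose to 0.0529 without winter D.

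MCL1 lay at the 95.1st percentile of mean TPM among tested genes. It held 262, 229, 175 and 189 TPM in summer A, B, C and E and 339, 114, 277 and 294 TPM in winter A, B, D and E. Winter B was the lowest library of all and the other winter libraries were the highest. The difference was -0.17 (95% interval -0.83 to 0.50, adjusted p = 0.696, limma), and without winter B it was -0.52 (adjusted p = 0.0415, limma). BCL2L2 ranged from 27.7 to 43.8 TPM in summer and from 29.4 to 41.9 TPM in winter, with a difference of 0.08 (95% interval -0.35 to 0.51, adjusted p = 0.770, limma).

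BCL2 itself was barely detected. It was listed at 0 in summer A and E, at 0.533 and 2.55 TPM in summer B and C, and at 4.60, 1.30, 2.05 and 1.77 TPM in winter A, B, D and E. Summer C overlapped the winter values (difference -1.08, adjusted p = 0.101, limma), and without it BCL2 would have been called lower (-1.49, adjusted p = 0.0338, limma). BCL2A1, a guardian of blood and activated cells, was not tested. It was found mainly in the A libraries, with 3.84 TPM in the summer library and 13.2 TPM in the winter one, and did not exceed 0.561 TPM elsewhere.

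The inhibitors of apoptosis showed 1 library far from the rest. XIAP blocks caspases directly, and BIRC2 and BIRC3 are ubiquitin ligases of tumour necrosis factor signalling, of which BIRC3 is a target of NF-kB. BIRC3 measured 23.5, 10.6, 7.84 and 13.1 TPM in summer A, B, C and E and 368, 13.4, 13.0 and 15.9 TPM in winter A, B, D and E. Winter A alone set the winter mean of 103 ± 177 TPM. With all libraries the difference was -1.29 (95% interval -3.30 to 0.73, adjusted p = 0.306, limma), and without winter A it was -0.13 (adjusted p = 0.782, limma). BIRC2 was also highest in winter A, at 57.0 TPM, and lay between 16.0 and 24.3 TPM in the other 7 libraries (difference -0.57, and -0.22 without winter A). XIAP ranged from 3.57 TPM in summer A to 18.1 TPM in summer C and enclosed all winter values, which lay between 6.74 and 11.8 TPM (difference 0.10, 95% interval -0.78 to 0.99, adjusted p = 0.861, limma). Winter A was also the library with the highest epithelial and leukocyte marker sums, the latter mostly CD74, as given above, and with the highest BCL2A1 and BCL2L11. What these had to do with its BIRC3 level was not tested.

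Of the BCL2-like genes without a settled side, BCL2L14 rose in summer, while BCL2L12 was higher and BCL2L13 lower with differences short of 2-fold. BCL2L14 encodes BCL-G, which promoted death when overexpressed in human cells. BCL2L13 encodes a mitochondrial outer membrane protein that acts as a receptor for mitophagy, and the BCL2L12 protein has been described as a restraint on caspases and p53 in human tumour cells. BCL2L14 rose, from 5.23, 8.85, 6.35 and 10.1 TPM in winter A, B, D and E to 22.7, 15.2, 20.0 and 21.8 TPM in summer A, B, C and E. The lowest summer library, B, lay above the highest winter library, E. The difference was 1.30 (SE 0.24, adjusted p = 0.00690, limma), and leaving out any single library kept the call, with differences from 1.15 to 1.43. The call was lost with the library letter as a block (difference 1.23, adjusted p = 0.0665, limma). The oocyte markers, a list chosen with earlier results known, had a median difference of 1.15 in the same fit. Of these, 14 of 15 were called higher, against 4.4% of all genes. What they had to do with the BCL2L14 difference was not tested.

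BCL2L13 had 40.8, 48.9, 49.8 and 39.3 TPM in summer A, B, C and E and 76.8, 68.9, 83.9 and 87.9 TPM in winter A, B, D and E. The seasons were far apart and the spread within each was small. The difference was -0.82 (SE 0.14), short of 2-fold, with the smallest adjusted p of any member (0.00569, limma), and adjusted p was at most 0.0222 with each library left out. BCL2L12 stood at 54.0, 62.1, 49.8 and 54.0 TPM in summer and at 33.3, 42.9, 46.1 and 33.0 TPM in winter, without overlap. Its difference was 0.50 (SE 0.16, adjusted p = 0.0391, limma), and adjusted p exceeded 0.05 when any library other than winter B or D was left out (up to 0.116, limma). BCL2L15 was not tested and did not exceed 2.48 TPM. The ratio of BCL2L14 to BCL2L13 ran from 0.310 to 0.556 in summer and from 0.0681 to 0.128 in winter, a gap that the opposite directions of the pair already fixed.

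**Figure D3:**
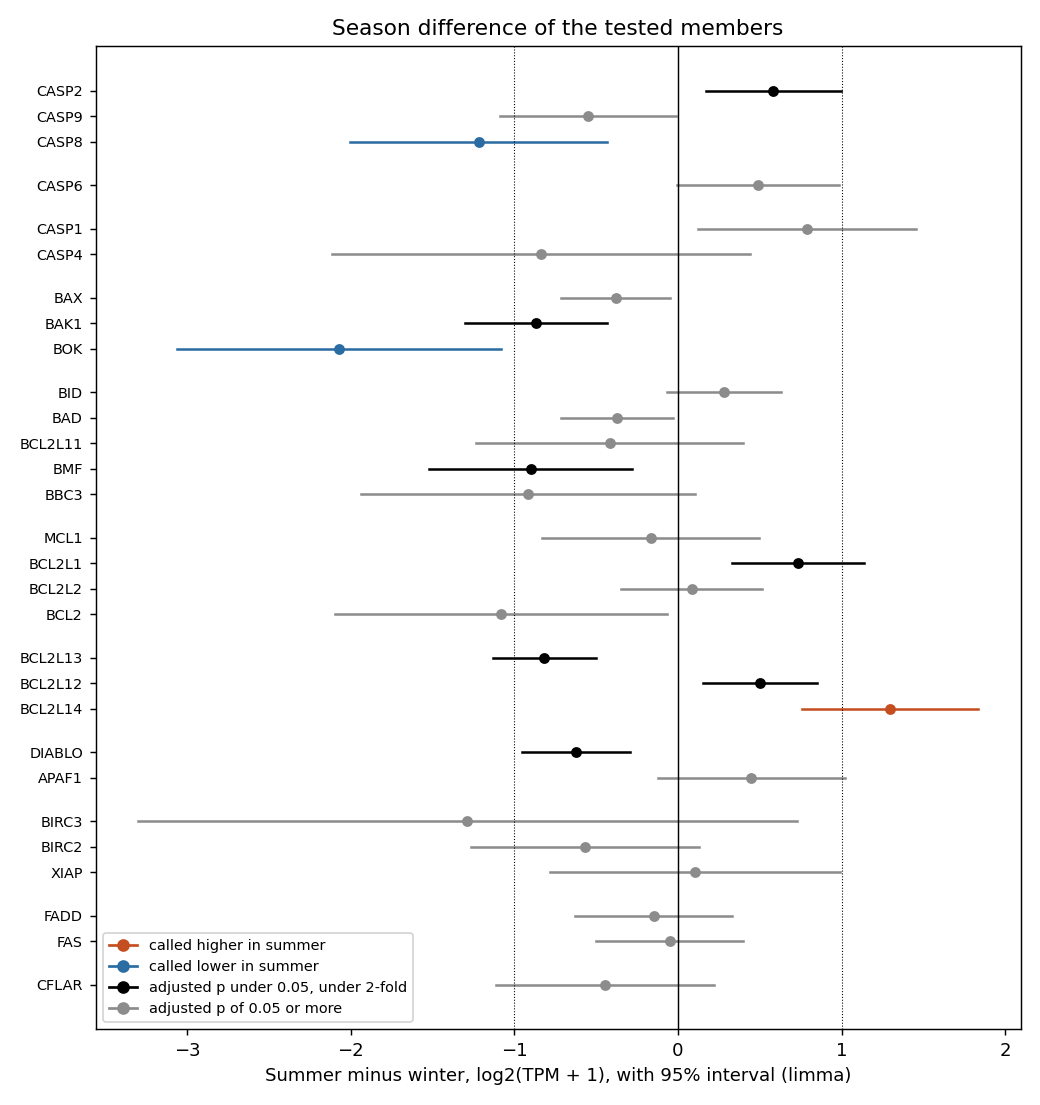
Difference between the seasons for 29 tested members, as summer less winter in log2(TPM + 1), with 95% intervals from limma. Dotted lines mark a 2-fold difference. BOK (-2.07) and CASP8 (-1.22) were called lower and BCL2L14 (1.30) higher, 7 members in black had an adjusted p under 0.05 but less than a 2-fold difference, and the interval of BIRC3 is the widest.

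Of the death receptor arm, FAS, FADD and CFLAR did not pass the test. FAS is the receptor, FADD its adaptor, and CFLAR encodes the caspase-8 lookalike c-FLIP. FADD was the most abundant pro-death transcript in 5 of the 8 libraries, at 97.0, 65.5, 65.9 and 43.7 TPM in summer A, B, C and E and 62.8, 85.7, 73.1 and 70.7 TPM in winter A, B, D and E. Summer libraries spanned the winter range (difference -0.15, 95% interval -0.63 to 0.33, adjusted p = 0.629, limma). FAS stayed between 10.7 and 15.4 TPM in all libraries (difference -0.05, 95% interval -0.50 to 0.40, adjusted p = 0.867, limma). CFLAR lay between 4.31 and 13.2 TPM (difference -0.45, adjusted p = 0.283, limma). FADD exceeded FAS by 3.32 to 7.98 times.

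Set side by side, tested pro-death members (18 genes) had 2 lower and none higher, and tested anti-death members (8 genes) had none in either direction, where 4.4% of all genes were called higher and 5.17% lower. Adjusted p was under 0.05 for 1 pro-death member higher (CASP2) and 5 lower (CASP8, BOK, BAK1, BMF and DIABLO), and for 1 anti-death member higher (BCL2L1), where 14.9% of all genes were higher and 11.9% lower at that limit. Medians of the difference were -0.55 for the 3 initiators, -0.52 for the 10 tested pro-death BCL2 and mitochondrial genes, and -0.31 for the 8 anti-death genes, which became -0.06 without winter A. Summed TPM of the 19 pro-death genes ran from 459 to 501 in summer and from 485 to 553 in winter. The 9 anti-death genes summed to between 328 and 418 TPM in summer and between 253 and 878 TPM in winter, the highest being winter A with 368 TPM of BIRC3.

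Ratios between members do not depend on the scaling of a library, and they are given as a description. BAX and BAK1 were each lower and BCL2L1 higher in every summer library, so their ratios had to lie apart and add no support. BAX over BCL2L1 was 0.502, 0.532, 0.585 and 0.540 in summer A, B, C and E. In winter A, B, D and E it was 0.836, 0.872, 1.62 and 1.69. BAK1 over BCL2L1 ran from 0.250 to 0.371 in summer and from 0.722 to 1.48 in winter. Both ratios were highest in winter D and E, where BCL2L1 was lowest and where the oocyte markers had their lowest shares (0.676 and 0.436%). The part of the marker shift in these ratios was not tested. BAX over MCL1 overlapped between the seasons (0.134 to 0.190 in summer, 0.114 to 0.344 in winter), as did MCL1 over BCL2L1 (2.89 to 3.96 and 2.53 to 10.2).

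**Figure D4:**
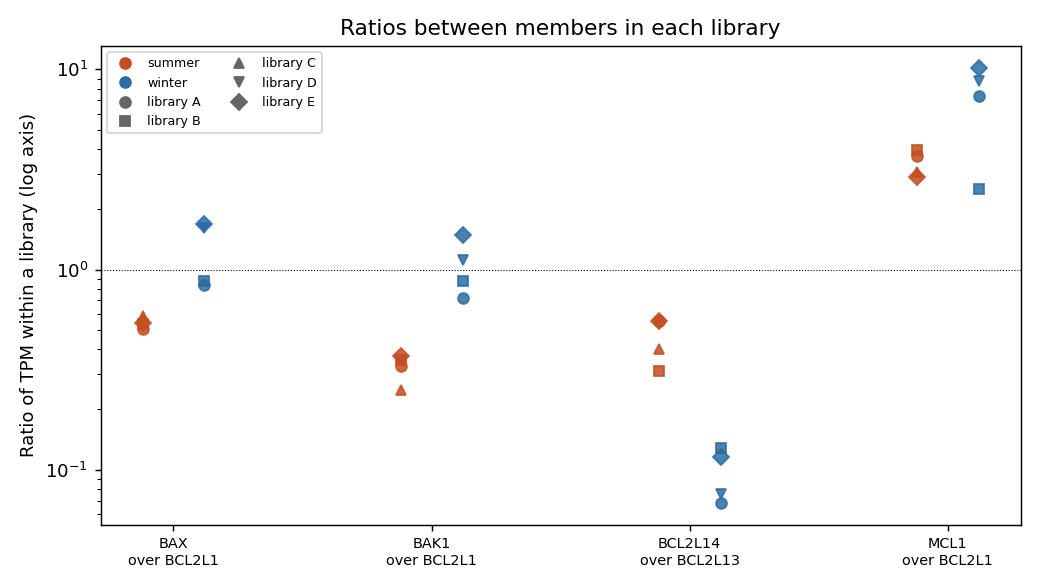
Ratio of TPM between pairs of members within each library, on a log axis, with summer in orange and winter in blue and the library letter as the symbol. The seasons are apart for BAX over BCL2L1 (0.502 to 0.585 against 0.836 to 1.69), BAK1 over BCL2L1 and BCL2L14 over BCL2L13, as the members' own values already fixed, and overlap for MCL1 over BCL2L1, where winter B (2.53) lies under the summer range.

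Few other genes of cell death were called. Of 68 listed (p53 and its partners, death receptor adaptors, mitochondrial factors, nucleases, gasdermins and others), 66 were in the table and 58 were tested, and 1 rose and 1 fell (3.45% called, against 9.57% of all genes). Adjusted p was under 0.05 for 5 higher and 9 lower (24.1%, against 26.8% of all genes), and the median difference was -0.19, against -0.03 over all genes. TNFRSF1A, the main receptor of tumour necrosis factor, fell, from 52.3, 67.2, 58.3 and 42.6 TPM in winter A, B, D and E to 27.4, 18.8, 19.5 and 16.3 TPM in summer A, B, C and E. The seasons did not overlap (difference -1.39, SE 0.20, adjusted p = 0.00379, limma), and leaving out any single library kept the call. NLRP1, an inflammasome sensor that activates caspase-1, rose from 16.9, 17.7, 15.8 and 9.08 TPM in winter A, B, D and E to 34.1, 27.9, 34.9 and 28.6 TPM in summer A, B, C and E. It did not overlap between the seasons, and its difference of 1.06 (SE 0.22, adjusted p = 0.00932, limma) was under the 2-fold limit without winter E (0.86) and with array weights (0.96). With the library letter as a block, its adjusted p was 0.0640 (limma). PEA15, which binds FADD and caspase-8, had a mean of 75.6 ± 10.0 TPM in summer libraries against 140 ± 6.99 TPM in those of winter (difference -0.88, adjusted p = 0.00379, limma). PDCD5, a protein that rises in dying human cells, stood at 262 ± 32.0 and 160 ± 27.7 TPM (difference 0.72, adjusted p = 0.00888, limma).

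Some members lie within or beside other genes, which limits how their values can be read. All 35 symbols were found in RefSeq (ARS-UCD2.0), where 7 members overlap another protein-coding gene (CASP8 with FLACC1, CASP9 with CELA2A, BAX with TULP2, BAD with GPR137, BCL2L11 with ACOXL, BCL2L2 with PABPN1 and XIAP with a gene known only by a locus number). The use of strand in counting is not given in the sources used here, so reads of overlapping genes may have been assigned to either.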

How the data were processed

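The deposited values are TPM, which the authors derived from trimmed reads aligned to cattle. The methods of the study attribute the TPM to CLC Genomics Workbench with trimmed-mean factors, and the submitters' notes also list Bowtie2 2.2.2, bcl2fastq and DESeq2 without saying what each did. Since TPM sums to one total in all libraries, depth cannot be recovered and no counting interval is given. No coordinates are printed.

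Genes with zFPKM above -3 in every library of a season entered limma 3.58.1 (R 4.3.3, lmFit and eBayes with trend). The model held season alone and was fitted to log2(TPM + 1). P-values were Benjamini-Hochberg adjusted over 13379 genes. A call needed an adjusted p under 0.05 as well as a 2-fold difference. Marker sums were compared by two-sided exact permutation. The fit was tested on simulated data. Members, roles and lists were chosen with earlier results of these data known. 2 members, counted in the totals, are not reported here. The other members are named, and of the other pathway genes those called and those with the 4 smallest p. Alternatives covered pseudocounts, filters, scalings, moderation, weights, calling limits, a block for the library letter, and leaving out single libraries. Leaving out both letter A libraries was chosen after seeing the data.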

Additional observations from a re-analysis of the deposited data

Results flagged for a closer look

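Of 58 season groups of 4 values, 2 held a library far from the other libraries of its season, where chance gives about 1 in 20 groups. BIRC3 in winter A stood at 368 TPM, while the other winter libraries lay between 13.0 and 15.9 TPM. BCL2L11 in winter A stood at 13.8 TPM, and the other winter libraries lay between 3.67 and 4.21 TPM.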

How the results depend on the processing

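BCL2L14 was called higher and BOK lower with each library left out in turn and under every scaling, filter, pseudocount, weighting and moderation tried. The exception was the library letter as a replicate block, under which members higher in summer numbered 0 (BCL2L14 1.23, adjusted p = 0.0665, limma) and members lower numbered 1 (BOK), and over all genes 179 were higher and 296 lower, against 589 and 692 without it. The labels do not say that the letters mark the same cows. The study's methods state that a failed summer pool was left out together with its matching winter pool, yet C occurs only in summer and D only in winter. Deviations of same-letter libraries correlated at 0.0492 (A), 0.138 (B) and 0.201 (E), each library of a shared letter correlating best with its own letter. Without any limit on the size of the difference, 4 members were higher and 6 lower. With 1 library left out, members higher stayed at 1, and members lower ranged from 1 to 3, while over all genes 270 (without winter E) to 983 (without winter B) were higher. BMF was also called lower with a pseudocount of 0.1 or 0.5 and without both letter A libraries. Members that were not called changed sign in 10 instances. Under quantile normalization FAS was 0.0775. With the replicate block BCL2L2 was -0.0593 and XIAP -0.26. Without both letter A libraries BCL2L11 was 0.0117. With 1 library left out, the highest value was 0.0427 for FADD, 0.0335 for FAS and 0.00337 for MCL1, and the lowest was -0.18 for XIAP, and the lows of the first 3 were -0.34, -0.13 and -0.52 while the high of XIAP was 0.51. Role medians moved by less than their spread between libraries under every scaling, filter, pseudocount and left-out library, though the anti-death median of -0.31 became -0.06 without winter A. Depth cannot be read from TPM, so values of a few TPM, such as those of BOK and CASP8, have an unknown counting error.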

Other observations

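In RefSeq (ARS-UCD2.0) BIRC2 and BIRC3 are neighbours, as are BID and BCL2L13, and CASP1 and CASP4. BIRC3 over BIRC2 was 6.47 in winter A and between 0.421 and 1.17 in the other 7 libraries. BID was higher on average in summer (70.6 ± 8.17 against 58.2 ± 10.1 TPM) while BCL2L13 was lower (44.7 ± 5.38 against 79.4 ± 8.37 TPM).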
